A study of Bos taurus with 3 samples.

Results

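TNFRSF6B, the 3 ligands that it binds (FASLG, TNFSF14 and TNFSF15) and the receptors that compete for those ligands (FAS, TNFRSF14 and TNFRSF25) were followed through the cells of the newborn rumen. The genes were taken by symbol: of 7 symbols sought, 6 matched a gene among the 27270 genes of the count matrices, and TNFRSF14 was not analysed here because no gene carried that symbol. The data came from the ventral rumen of 3 dairy calves in 1 group, labelled newborn and sampled 1 day after birth. The paper describes no treatment of the calves and names a breed (Holstein) only for the adults. Each calf gave 1 droplet library (10x Genomics 3′ v3 chemistry). The outer muscle was stripped before dissociation with EDTA, trypsin and further enzymes, so the cells counted here were those that this protocol released, and dead cells were removed only from suspensions of low viability. Adult libraries of the same study were not analysed here.

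TNFRSF6B encodes decoy receptor 3, a secreted protein of the tumour necrosis factor (TNF) receptor superfamily that has no membrane anchor and passes on no signal. It captures FASLG (Fas ligand), TNFSF14 (LIGHT) and TNFSF15 (TL1A) and so keeps them from their signalling receptors: FAS, which triggers apoptosis through FADD and caspases, TNFRSF14 (HVEM), and TNFRSF25 (death receptor 3), which acts on T cells. FASLG and TNFSF14 are known mainly from activated lymphocytes, and TNFSF15 from endothelial cells and antigen-presenting cells.

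The 3 libraries held 7529 to 12043 barcodes and 82263092 to 106145091 unique molecular identifiers (UMIs, each standing for 1 captured RNA molecule). After barcodes outside 500 to 4000 genes and called doublets were set aside, 4695, 9746 and 9601 cells remained for calves 1, 2 and 3, with median depths of 10170, 6469 and 7385 UMIs. Pairs of libraries shared 11 to 25 barcode sequences among their kept cells. Clustering without the 7 genes gave 21115 epithelial, 1330 endothelial, 785 fibroblast (with myofibroblasts) and 810 immune cells, and 2 cells stayed unnamed. Each class carried its markers: KRT5 stood at 46.4 UMIs per 10000 in epithelial cells, CLDN5 at 10.9 in endothelial cells, COL3A1 at 114 in fibroblasts and PTPRC at 3.87 in immune cells (means of 3 calves). Calf 1 gave only 22 fibroblasts and 12 immune cells, and calf 3 gave 722 of the 810 immune cells, so values for these classes rest mostly on calves 2 and 3 or on calf 3 alone.

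Most TNFRSF6B UMIs came from epithelial cells, which were also by far the largest class. Levels are given as UMIs of the gene per 10000 UMIs of all genes in the summed cells of a class of 1 calf. In epithelial cells TNFRSF6B had 574, 1767 and 1173 UMIs in calves 1, 2 and 3, which are levels of 0.114, 0.264 and 0.172 (0.183 ± 0.0760, SD, n = 3 calves). A UMI of the gene was found in 9.71%, 6.40% and 9.48% of epithelial cells. When each cell of at least 2000 UMIs was thinned at random to 2000 and shallower cells were left out, the shares became 2.41%, 2.64% and 2.73% (2.59% ± 0.169, SD, n = 3). The calves therefore differed little in how many epithelial cells showed TNFRSF6B at equal depth, while the level in calf 2 exceeded that of calf 1.

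In endothelial cells the level of TNFRSF6B was 0.106, 0.0618 and 0.0548 from 4, 15 and 19 UMIs, and in fibroblasts 0.249, 0.117 and 0.130 from 2, 9 and 13 UMIs. Immune cells had 0, 3 and 6 UMIs and levels of 0, 0.0738 and 0.0169. Thinned shares were 2.90%, 1.42% and 0.826% in endothelial cells, 6.25%, 1.90% and 2.97% in fibroblasts and 0%, 3.03% and 0.319% in immune cells, from 1167, 410 and 700 thinned cells over the 3 calves and from classes whose median depths before thinning were 3906.5, 2061 and 4605.5 UMIs, against 7660 in epithelial cells. In calves 2 and 3 the epithelial level was above that of the 3 other classes. In calf 1 the 22 fibroblasts read higher and the endothelial cells nearly as high as the epithelium, from 2 and 4 UMIs. The thinned share of fibroblasts was close to the epithelial one, at 2.68% (11 of 410 cells) against 2.63% over the 3 calves. It was above the epithelial share in calves 1 and 3, on 1 and 7 cells. Intervals are 95% exact Poisson (levels) or Clopper-Pearson (shares) intervals, detection floors are 3 UMIs or 3 cells of the total, and both cover counting error only.

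The test between classes summed counts per calf and class and blocked on the calf (edgeR quasi-likelihood, Benjamini-Hochberg over 16082 genes). By this test TNFRSF6B was lower in endothelial than in epithelial cells by a log2 difference of -2.03 (SE 0.37, adjusted p = 2.6e-05) and lower in immune than in epithelial cells by -3.22 (adjusted p = 5.4e-06). Fibroblasts differed from epithelium by -1.05 (SE 0.41, edgeR adjusted p = 0.0503), just outside the threshold of 0.05, and by -1.29 without calf 1 (edgeR adjusted p = 0.0073). In the order epithelial, fibroblast, endothelial, immune, no 2 neighbours passed the test, since endothelial against fibroblast (-0.98, edgeR adjusted p = 0.19) and immune against endothelial cells (-1.19, edgeR adjusted p = 0.17) also missed it, and immune against fibroblast cells passed (-2.17, edgeR adjusted p = 0.0093) but not without calf 3 (-1.04, edgeR adjusted p = 0.69).

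Epithelial keratins were also read in the other classes. In fibroblasts and endothelial cells KRT5, KRT14 and KRT15 stood highest in calf 1, as TNFRSF6B did, and KRT17 in calf 2. The 6 epithelial markers (EPCAM, KRT5, KRT14, KRT15, KRT17 and CDH1) summed to 159 to 196 per 10000 UMIs in epithelial cells, 93.2, 17.1 and 10.9 in the fibroblasts of calves 1, 2 and 3, 19.4, 9.29 and 5.21 in endothelial cells and 19.3, 23.2 and 6.66 in immune cells, and none of the 6 was at 0 except 2 in the immune cells of calf 1. KRT5 in endothelial cells was 9.67%, 4.82% and 3.55% of its epithelial level, whereas TNFRSF6B there was 93.2%, 23.4% and 31.9% of its own. In fibroblasts these values were 60.1%, 9.34% and 7.42% for KRT5 and 219%, 44.2% and 75.5% for TNFRSF6B. The TNFRSF6B share of the epithelial level was thus above that of KRT5 in both classes of all 3 calves, on 2 to 19 UMIs per sum, and the part of carried-over epithelial RNA in these values was not tested.

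**Figure D1:**
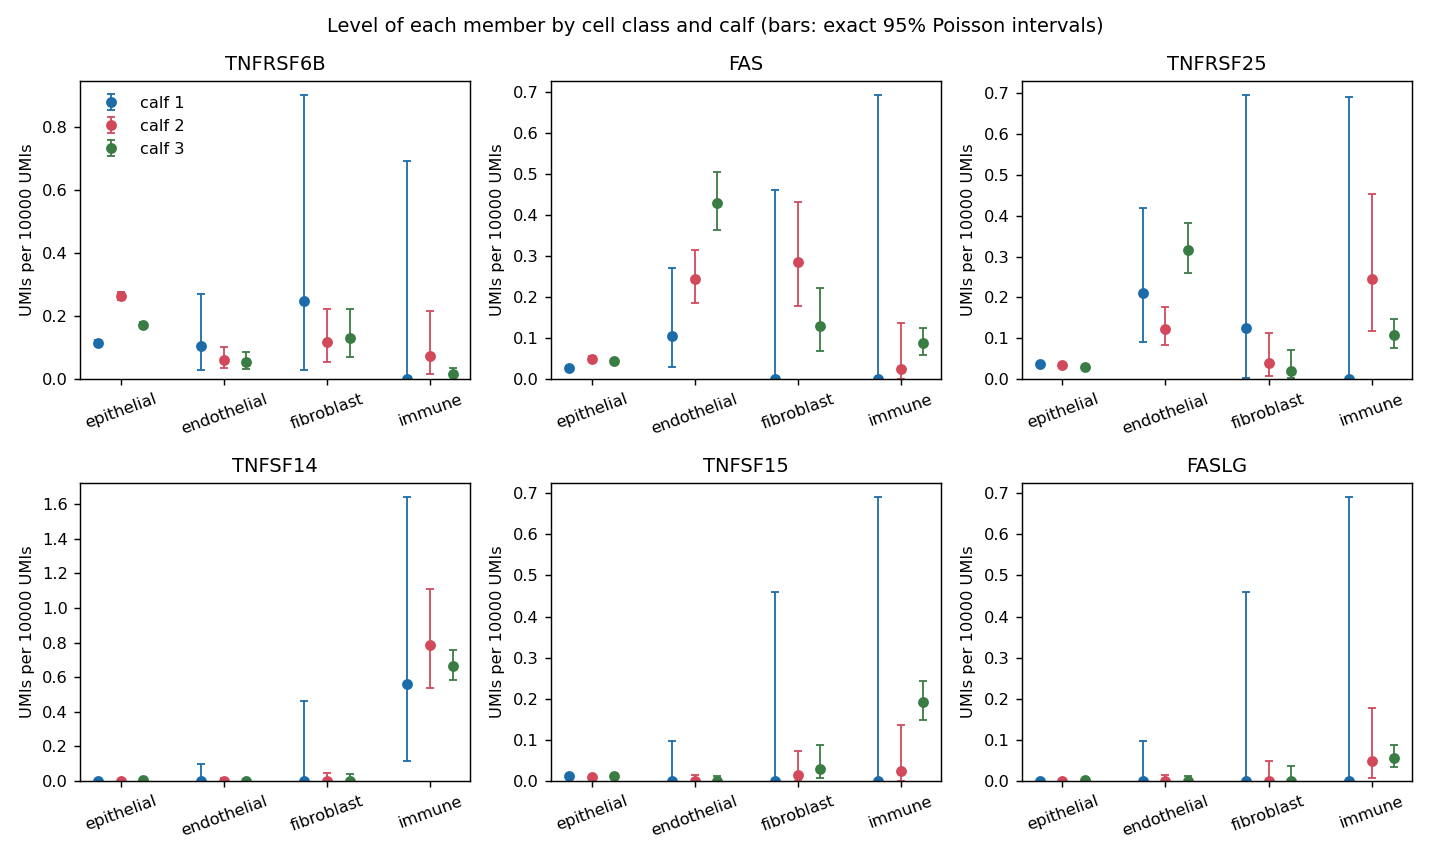
Level of each of the 6 genes (UMIs per 10000 UMIs, 1 panel per gene with its own axis) in the 4 cell classes, with 1 point per calf and bars for the 95% exact Poisson interval. TNFRSF6B was highest in epithelial cells of calves 2 and 3, FAS and TNFRSF25 stood highest in endothelial cells of calf 3, and the 3 ligands were highest in immune cells of calves 2 and 3.

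Within the epithelium, calf 2 differed from the others in how TNFRSF6B was spread over cells. Cells with a single TNFRSF6B UMI numbered 376, 359 and 554 in calves 1, 2 and 3, and cells with 2 UMIs numbered 49, 48 and 117. Cells with 3 to 9 UMIs numbered 18, 105 and 55, and cells with 10 or more numbered 2, 49 and 10. These last few cells held 6.45%, 45.1% and 13.0% of all epithelial TNFRSF6B UMIs, and the highest single cells reached 26, 43 and 46 UMIs. Without the cells of 10 or more, the levels of the 3 calves were 0.106, 0.146 and 0.150, so the high level of calf 2 came largely from 49 of its 8770 epithelial cells. For FAS, TNFSF15 and TNFRSF25, no epithelial cell of any calf had more than 4, 3 and 3 UMIs.

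**Figure D2:**
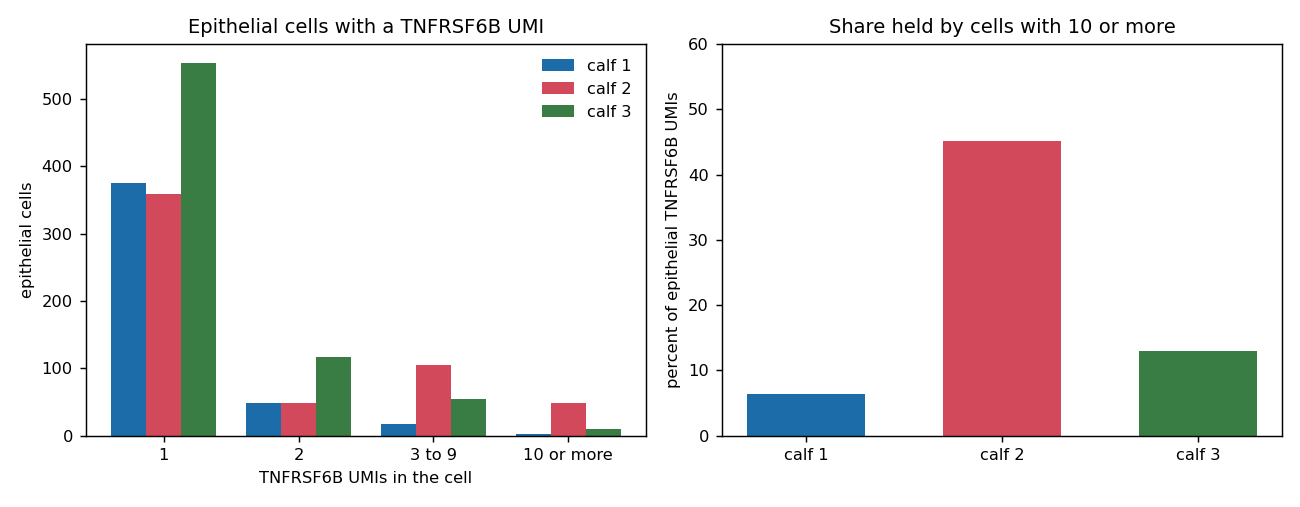
Left, number of epithelial cells of each calf with 1, 2, 3 to 9 or at least 10 TNFRSF6B UMIs; right, percent of the epithelial TNFRSF6B UMIs of each calf held by cells with at least 10. Calf 2 had 49 such cells, which held 45.1% of its UMIs, against 2 cells (6.45%) in calf 1 and 10 cells (13.0%) in calf 3.

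The epithelial cluster with the most TNFRSF6B differed from calf to calf: cluster 5 in calf 1, cluster 3 in calf 2 and cluster 12 in calf 3. The leading genes of cluster 3 were TM4SF1, ADM, ERRFI1, the immediate-early and heat-shock genes FOSB, DUSP1, DNAJB1 and ATF3, and then HBEGF. In this cluster the TNFRSF6B level was 0.130, 0.853 and 0.106 in calves 1, 2 and 3. In cluster 6, led by the DNA replication genes MCM3, MCM5 and PCNA, it was 0.101, 0.727 and 0.222. Among 13 clusters with at least 20 cells in each calf, cluster 3 ranked 7, 1 and 11 and cluster 6 ranked 9, 2 and 6, so their high place was that of calf 2. In that calf cluster 3 held 47.4% of the cells with 3 or more UMIs but 12.2% of all epithelial cells, and cluster 6 held 33.1% of them but 5.80% of all.

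In calf 3 the cells with 3 or more UMIs lay most often in cluster 7, led by the mitotic genes TOP2A and MKI67, with 21.5% of them against 4.26% of epithelial cells. TNFRSF6B in cluster 7 was 0.0396, 0.0161 and 0.265 in calves 1, 2 and 3, which ranked it 13, 13 and 3. Cluster 5, led by the inflammatory genes CXCL3, GRO1 and TNFAIP3, had levels of 0.224, 0.240 and 0.194 and ranks of 1, 5 and 7. Cluster 12, whose leading genes include the keratins KRT14, KRT6A and KRT17, ranked 3, 4 and 1 and so was among the first 4 in every calf, at 0.172, 0.276 and 0.636. These levels rest on 2, 3 and 6 UMIs in 67, 49 and 41 cells, with a median depth of 1640 UMIs, and their intervals are wide (0.0208 to 0.621, 0.0570 to 0.808 and 0.234 to 1.39). Cluster 10, whose leading genes include the fatty acid carrier FABP4, read 0.0464, 0.137 and 0.335, and cluster 9, led by the late differentiation genes SPINK5 and KRTDAP, read 0.0917, 0.0701 and 0.234. No cluster ranked in the first 2 in more than 1 calf.

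**Figure D3:**
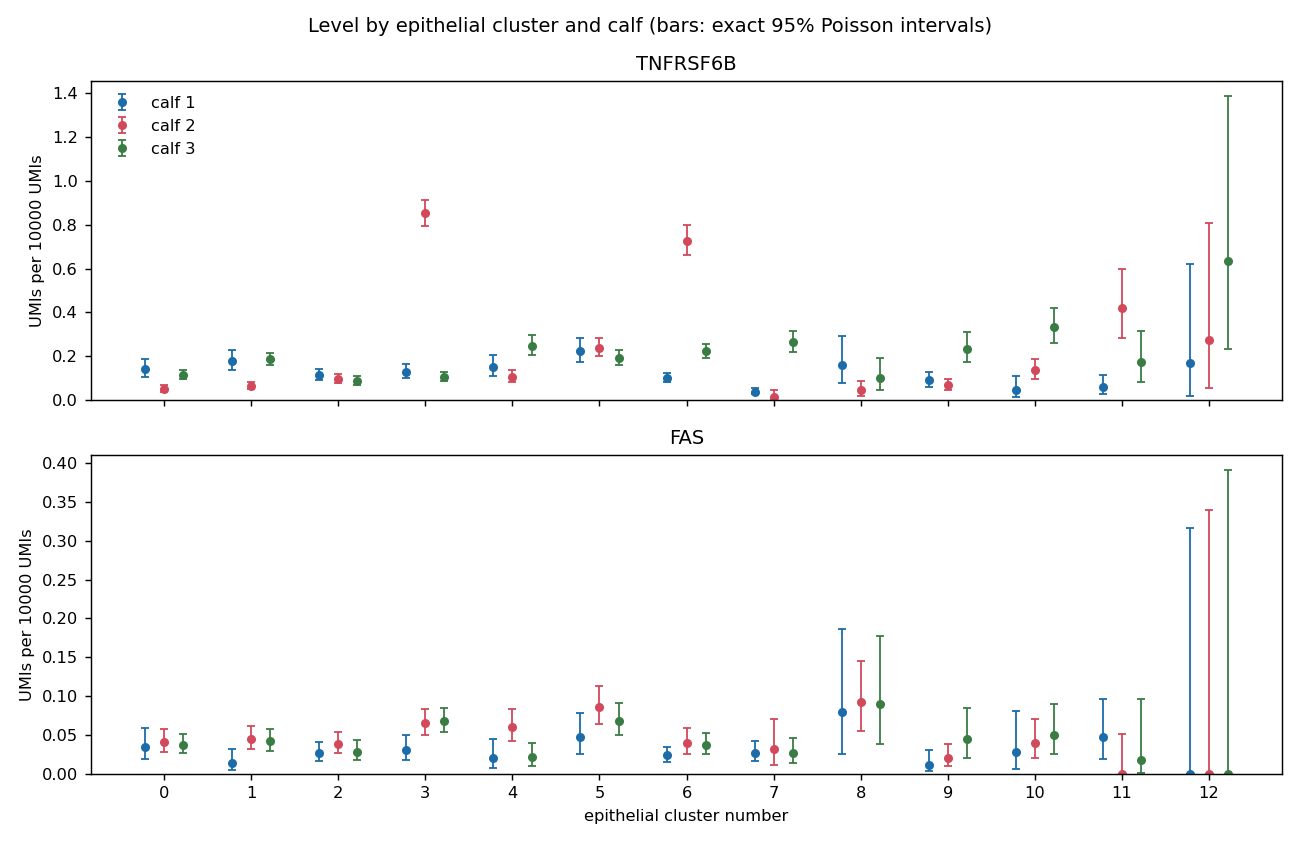
Level of TNFRSF6B and of FAS (UMIs per 10000 UMIs) in each of 13 epithelial clusters, with 1 point per calf and bars for 95% exact Poisson intervals. For TNFRSF6B, clusters 3 and 6 of calf 2 stand at 0.853 and 0.727 while the same clusters of the other calves lie between 0.101 and 0.222; for FAS, cluster 8 is highest in all 3 calves.

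FAS and TNFRSF25, the measured signalling receptors, both had higher levels in endothelial than in epithelial cells in all 3 calves. FAS had 4, 59 and 149 UMIs in the endothelial cells of calves 1, 2 and 3, with levels of 0.106, 0.243 and 0.429, against 0.0273, 0.0495 and 0.0446 in epithelial cells. Fibroblasts read 0, 0.286 and 0.130, and immune cells 0, 0.0246 and 0.0872. Every calf therefore had more FAS in endothelium than in epithelium, and the fibroblasts of calf 2 read above its endothelium.

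Endothelial cells exceeded epithelial cells in FAS by a log2 difference of 2.25 (SE 0.36, edgeR quasi-likelihood, Benjamini-Hochberg adjusted p = 3.1e-06). Fibroblasts exceeded epithelial cells by 1.45 (edgeR adjusted p = 0.0106), a call that was lost without calf 2 (0.76, edgeR adjusted p = 0.52) and with DESeq2 (1.57, adjusted p = 0.060). Immune cells were below endothelial cells by -2.07 (edgeR adjusted p = 0.00072), while endothelial against fibroblast (0.80, edgeR adjusted p = 0.23) and immune against epithelial cells (0.18, edgeR adjusted p = 0.79) missed the threshold. After thinning, 2.90%, 3.65% and 7.77% of endothelial cells and 0.720%, 0.854% and 0.998% of epithelial cells had a FAS UMI, against 10.0% ± 6.91 and 3.37% ± 0.433 (SD, n = 3 calves) without thinning.

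TNFRSF25 followed the same order of levels between endothelium and epithelium. It had 8, 30 and 110 endothelial UMIs in calves 1, 2 and 3, with levels of 0.212, 0.124 and 0.317, against 0.0373, 0.0338 and 0.0299 in epithelial cells. After thinning, 0%, 1.42% and 6.78% of endothelial cells and 1.06%, 0.690% and 0.604% of epithelial cells had a TNFRSF25 UMI. Calf 1, with 69 thinned endothelial cells, thus did not show the order by share. Fibroblasts gave 1, 3 and 2 UMIs in all, and immune cells 0, 10 and 38, with levels of 0, 0.246 and 0.107, so in calf 2 the immune cells read above the endothelium. Endothelial cells were higher than epithelial cells by a log2 difference of 2.30 (SE 0.37, edgeR adjusted p = 4.7e-06), immune cells were higher than epithelial cells by 1.64 (edgeR adjusted p = 0.0050), and endothelial against immune cells did not pass (immune minus endothelial -0.66, edgeR adjusted p = 0.33). TNFRSF25 was also higher in endothelial cells than in fibroblasts (2.81, edgeR adjusted p = 0.00088), but the latter call rested on calf 3, without which it was 1.63 (edgeR adjusted p = 0.30). Immune cells stood above fibroblasts by 2.15 (edgeR adjusted p = 0.0215), with adjusted p of 0.11 without calf 2 and 0.19 without calf 3 in the same edgeR test and 0.061 by DESeq2.

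Among epithelial clusters FAS kept more of one order than TNFRSF6B did. Cluster 8 ranked first in all 3 calves, with levels of 0.0797, 0.0919 and 0.0902 from 5, 18 and 8 UMIs. Mitochondrial transcripts led this cluster and its median depth was 2752 UMIs, the second lowest of the 13 clusters, and the part of RNA quality in the FAS value was not tested. Cluster 5, with CXCL3 and TNFAIP3, ranked 3, 2 and 3 at 0.0468, 0.0860 and 0.0681.

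The ligands TNFSF14 and FASLG had their highest levels in immune cells, except FASLG in calf 1. TNFSF14, a ligand of TNFRSF14 and of the lymphotoxin beta receptor, had 3, 32 and 237 immune UMIs in calves 1, 2 and 3, with levels of 0.562, 0.787 and 0.667 (0.672 ± 0.112, SD, n = 3). Epithelial cells gave 2, 1 and 14 UMIs, from 21115 cells, and endothelial cells and fibroblasts gave none. All 3 calves thus read within 1.5 times of one another in immune cells, although calf 1 did so on 12 cells.

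The TNFSF14 level over all immune cells was at least 142-fold that which 3 UMIs would give over all endothelial cells and at least 41.9-fold for fibroblasts, and the log2 difference from epithelial cells was 9.02 (edgeR adjusted p = 2.6e-14). At equal depth 14.3%, 10.6% and 10.2% of immune cells had a UMI (19.3% ± 4.95 without thinning, SD, n = 3), while 0 of 1167 endothelial cells and 0 of 410 fibroblasts did, which allows shares of up to 0.257% and 0.732% (3 cells of the total; exact upper limits 0.316% and 0.896%). The epithelial share was 0.0194%.

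FASLG, the ligand that engages FAS to kill target cells, was rare. It had 0, 2 and 20 immune UMIs (levels 0, 0.0492 and 0.0563) and 1, 2 and 6 epithelial UMIs, and none in endothelial cells or fibroblasts. In the 12 immune cells of calf 1, 3 UMIs would already be a level of 0.562, so its absence there was below what could be detected. The level over all immune cells was at least 11.5-fold the endothelial floor and at least 3.39-fold the fibroblast floor of 3 UMIs, and immune cells exceeded epithelial cells by a log2 difference of 5.81 (edgeR adjusted p = 1.7e-07). Of thinned immune cells, 0%, 1.52% and 1.59% had a UMI in calves 1, 2 and 3, from 7, 66 and 627 cells.

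TNFSF15, the ligand of TNFRSF25, was read in immune cells of calf 3 and thinly but evenly in epithelium. Epithelial cells had 59, 67 and 81 UMIs and levels of 0.0117, 0.0100 and 0.0119, while immune cells had 0, 1 and 68 UMIs and levels of 0, 0.0246 and 0.191. Fibroblasts gave 0, 1 and 3 UMIs. In 1330 endothelial cells no TNFSF15 UMI was found, and 0 of 1167 after thinning is compatible with up to 0.257% (exact upper limit 0.316%), against 0.223% of thinned epithelial cells, so the depth could not separate these shares.

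By summed counts TNFSF15 was lower in endothelial than in epithelial cells (edgeR adjusted p = 0.0025), with 3 endothelial UMIs over all calves standing for 0.00478 per 10000. Immune cells exceeded epithelial cells by a log2 difference of 2.95 (edgeR adjusted p = 0.00014), which was 0.54 without calf 3 (edgeR adjusted p = 0.90). They exceeded fibroblasts by 2.68 (edgeR adjusted p = 0.0090), which was 0.90 without calf 3 (edgeR adjusted p = 1). With DESeq2 neither passed (adjusted p = 0.072 and 0.29). The immune level was at least 36.0-fold the endothelial floor, on UMIs of which 68 of 69 came from calf 3.

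Among immune clusters, TNFSF15 lay mostly apart from TNFSF14 and FASLG. Most TNFSF14 lay in the 3 T or NK-like clusters, with 194 of its 272 immune UMIs. These clusters were led by CD3D, CD3E and CD27, by KLRB1, CTSW and CCL5, and by ZAP70 and CD247. Together they read 4.40, 2.99 and 2.93 per 10000 in calves 1, 2 and 3, from 3, 12 and 179 UMIs. In calf 3, 33.3% of the 159 thinned T or NK-like cells had a TNFSF14 UMI (exact interval 26.1% to 41.2%). Outside these clusters TNFSF14 was read in unnamed cluster 5, whose leading genes include IL17F, IL17A and MKI67 (1.40 in calf 2 and 1.45 in calf 3). It was also read in unnamed cluster 7, led by FCN1 and S100A9 and nearest to the macrophage markers (1.23 and 2.52). In calf 3 cluster 7 read above T or NK-like cluster 3 (2.31). The 230 dendritic-like cells (FCER1A, CD1E) held 2 UMIs, the 89 macrophage-like cells (APOE, C1QC) held 1, and clusters 4, 6 and 8 held 0.

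TNFSF15 showed another distribution. Of its 69 immune UMIs, 52 were in dendritic-like cells, all of calf 3 (0.357 per 10000 in that calf), 9 in macrophage-like cells and 5 in cluster 4, led by CLEC9A and BATF3. The 241 T or NK-like cells held none. FASLG was read in T or NK-like clusters 1 and 3 (6 UMIs each) and in cluster 5 (8 UMIs), with 2 UMIs in the dendritic-like cells of calf 3 and none in macrophage-like cells.

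Among receptors in immune cells, TNFRSF25 was highest in cluster 5, at 0.747 in calf 2 and 0.943 in calf 3 from 8 and 24 of its 10 and 38 immune UMIs, except that T or NK-like cluster 1 of calf 2 read 1.06 from 2 UMIs in 9 cells. FAS had 20 of its 31 UMIs of calf 3 in T or NK-like cells (0.328). In all of these sums calf 1 contributed 1 to 5 cells, and plasmacytoid dendritic-like and ZAP70-led cells came from calf 3 only.

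**Figure D4:**
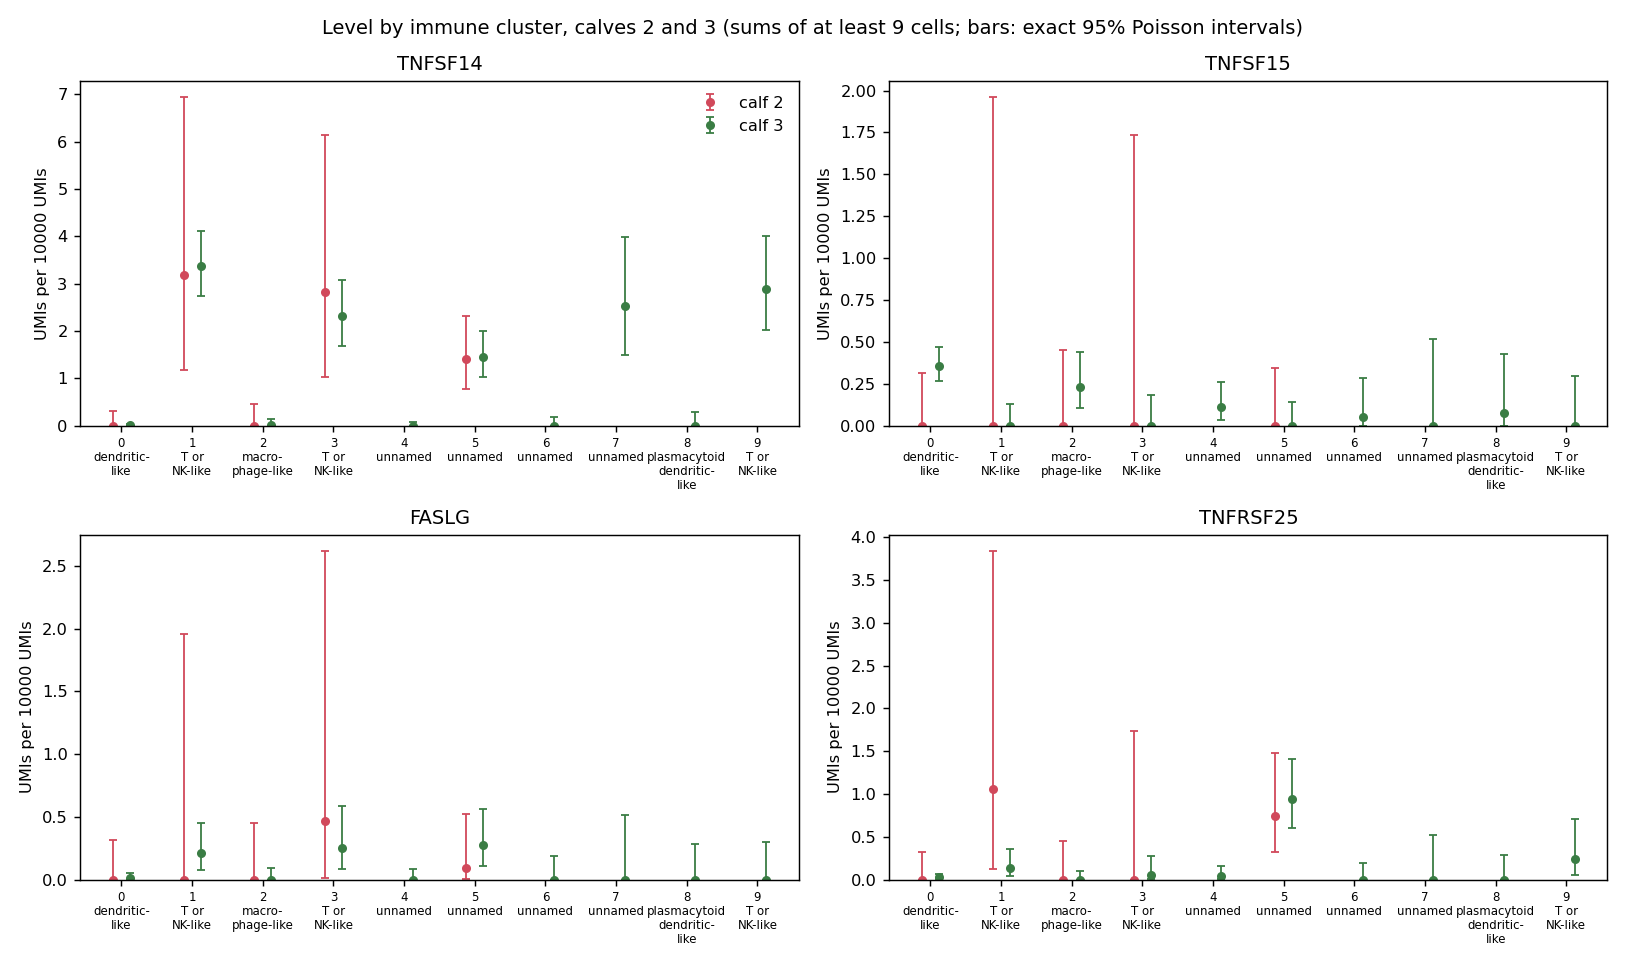
Level of TNFSF14, TNFSF15, FASLG and TNFRSF25 (UMIs per 10000 UMIs) in immune clusters of calves 2 and 3, for sums of at least 9 cells. Bars are 95% exact Poisson intervals. TNFSF14 is read in the T or NK-like clusters and in clusters 5 and 7, TNFSF15 is highest in dendritic-like cells of calf 3, and TNFRSF25 in cluster 5, apart from T or NK-like cluster 1 of calf 2, whose 1.06 rests on 2 UMIs in 9 cells.

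All 6 genes passed the minimum of 10 UMIs over the summed libraries. Of these 6, 4 were called between endothelial and epithelial cells (38.4% of all genes tested), 1 between fibroblasts and epithelial cells (30%), 5 between immune and epithelial cells (39.9%), 2 between endothelial cells and fibroblasts (21%), 4 between immune and endothelial cells (28.1%) and 5 between immune cells and fibroblasts (29.3%). Classes differed in so many genes that these counts are close to the background in some pairs and above it in others, on 6 genes. The median log2 difference over all genes was -0.18, -0.28 and -0.28 for endothelial, fibroblast and immune against epithelial cells, and 0.24, 0.22 and 0.08 with library totals in place of TMM factors. The share of called genes that were higher than in epithelium moved with it from 47.3%, 49.2% and 46.8% to 66.9%, 74.6% and 62.0%. No called difference of the 6 genes changed direction with this choice.

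Other genes of the TNF superfamily were spread over the same classes, where 38.4%, 30% and 39.9% of all genes were called in endothelial cells, fibroblasts and immune cells against epithelium. Of 12 other ligands tested, 11 were higher in immune than in epithelial cells and 0 lower, among them TNF (log2 7.38), LTA (5.47) and TNFSF13B (8.18). Against epithelium, endothelial cells had 7 ligands higher and 1 lower: TNFSF10 (TRAIL) was higher by 8.67, and TNF was the lower one, with 1 UMI in all endothelial cells. Fibroblasts had 3 higher (TNFSF12, TNFSF13 and TNFSF18). Ligand medians are not given because several members had no UMI in 1 of the classes compared.

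Of 18 other receptors tested, 6 were higher and 4 lower in endothelial than in epithelial cells (median 0.17), 7 and 2 in fibroblasts (median 0.46) and 11 and 3 in immune cells (median 2.68), where the medians over all genes were -0.18, -0.28 and -0.28. The receptor medians are rough. The endothelial one includes members with large errors, such as TNFRSF9 (-3.12, SE 3.47), NGFR (-2.80, SE 3.11) and TNFRSF13C (-1.67, SE 3.04), none of them called. CD40, the costimulatory receptor, was higher than in epithelium by 3.88 in endothelial and 5.10 in immune cells, and TNFRSF1B (TNF receptor 2) by 2.46 and 4.66. EDAR, the ectodysplasin receptor of skin appendages, was lower by -5.01, -3.76 and -5.34 in endothelial cells, fibroblasts and immune cells, and TNFRSF12A, the receptor of TWEAK, was lower in immune cells by -2.80. The differences given for CD40, TNFRSF1B, EDAR and TNFRSF12A all passed the edgeR test at the adjusted threshold of 0.05.

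Of 17 genes of the death-inducing complex and caspases, 5 were higher and 1 lower in endothelial cells (median 0.40), 2 and 4 in fibroblasts (median -0.21) and 9 and 1 in immune cells (median 0.90). The 6 of 17 called in endothelial cells and in fibroblasts are close to the 38.4% and 30% of all genes called there, and the 10 of 17 in immune cells are above 39.9%. CASP8, the initiator caspase downstream of FAS, was higher than in epithelium by 1.34 in endothelial and 1.57 in immune cells, its inhibitor CFLAR by 0.92 and 1.31, and FADD in immune cells by 1.21. CYCS (cytochrome c) was lower in all 3 classes, by -1.47, -1.40 and -0.69. Of 18 adaptors and NF-kB genes, 9 were higher and 2 lower in endothelial cells (median 0.87), 0 and 2 in fibroblasts (median -0.36) and 10 and 0 in immune cells (median 0.95), with TNFAIP3, a feedback inhibitor of NF-kB, higher by 2.04 and 4.48 and TRAF5 lower in endothelial cells by -4.82.

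Cells in which 2 of the genes were read together were few. After thinning, 1, 6 and 0 epithelial cells of calves 1, 2 and 3 had UMIs of both TNFRSF6B and FAS, where independence would give 0.770, 1.93 and 2.08. With all UMIs and the expected numbers taken within 10 bins of depth, which was chosen after seeing the data, 16, 45 and 28 cells had both, against 13.6, 23.3 and 29.7. Calf 2 was the only calf in which the count exceeded the expected number beyond its exact Poisson interval (32.8 to 60.2).

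On the same basis, TNFRSF6B was found with TNFSF15 in 18 epithelial cells (19.5 expected) and with TNFRSF25 in 55 (57.5 expected). At equal depth TNFRSF6B and TNFRSF25 shared 0, 5 and 1 cells in calves 1, 2 and 3, against 1.13, 1.56 and 1.26 expected. The 5 cells of calf 2 were just beyond the expected number (exact interval 1.62 to 11.7). Its 22 cells with all UMIs were not (18.1 expected, exact interval 13.8 to 33.3). With all UMIs, FAS was found with TNFRSF25 in 20 epithelial cells (22.7 expected) and in 26 endothelial cells (23.6 expected). In immune cells, TNFSF14 shared 15 cells with TNFRSF25 against 5.05 expected (exact interval 8.40 to 24.7), 12 of them from calf 3 and 3 from calf 2. At equal depth the count was 1 cell against 1.43 expected, with no excess (exact interval 0.0253 to 5.57). TNFSF14 shared 11 immune cells with FAS against 6.24 expected with all UMIs (exact interval 5.49 to 19.7). At equal depth these 2 genes shared 6 cells, all of calf 3, against 1.84 expected (exact interval 2.20 to 13.1). TNFSF14 and TNFSF15 were found together in 1 of 810 immune cells against 4.02 expected (exact interval 0.0253 to 5.57). The expected numbers treat the immune cells as 1 population, although its clusters differed in these genes. They cannot tell the mix of clusters from reading together within a cell type, which was not tested. All of these counts describe the libraries and do not compare conditions.

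To see what else was read in cells with TNFRSF6B, thinned epithelial cells with at least 1 UMI of it (107, 226 and 208 in calves 1, 2 and 3) were summed per calf and compared with the cells without one (4340, 8321 and 7405). KRT17 and KRT6A, keratins of activated or stressed stratified epithelium, and TNFRSF12A were higher in the cells with TNFRSF6B, and KRTDAP and SPINK5, genes of late keratinocyte differentiation, were lower. Of 12947 genes tested, 53 were called (0.409%), 30 higher and 23 lower (edgeR quasi-likelihood blocked on the calf, with Benjamini-Hochberg adjustment), and 798 had an unadjusted p under 0.05. Without the block edgeR called 0 genes (304 with an unadjusted p under 0.05), and DESeq2 with the block called 7. With library totals in place of TMM factors the split was 50 higher and 18 lower, and the median log2 difference over all genes was -0.16 with TMM factors and -0.03 without.

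KRT17 stood at 360, 2757 and 536 CPM (UMIs of the gene scaled to equal library totals) in positive cells of calves 1, 2 and 3, against 240, 437 and 259 in those called negative, which gave a log2 difference of 1.40 (SE 0.14, edgeR adjusted p = 2.1e-19). KRT6A was 70.1, 441 and 130 against 28.1, 141 and 26.3 CPM (log2 1.67, edgeR adjusted p = 5.9e-18). TNFRSF12A was 88.8, 215 and 67.3 against 39.9, 43.2 and 44.2 CPM (log2 1.40, edgeR adjusted p = 5.4e-10). All 3 were higher in 3 of 3 calves, with the widest gap for KRT17 and TNFRSF12A in calf 2, and without that calf TNFRSF12A was 0.72 (edgeR adjusted p = 0.98).

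Further genes higher in 3 of 3 calves were CFB (complement factor B, log2 2.16), MFSD2A (1.94), PDPN (podoplanin, 1.61), SERPINE2 (a serine protease inhibitor, 0.97), MT2A (a metallothionein, 0.93), CX3CL1 (a chemokine, 0.86) and NHP2 (0.79). The basal keratin KRT14 was higher by 0.63, while the other 3 basal genes were not called (KRT5 0.17, COL17A1 -0.07 and KRT15 -0.13, edgeR adjusted p = 0.92 each). None of 3 granule cell markers was called (CLDN1 0.23, DLK2 0.17 and CLDN4 -0.03). CYCS, higher by 0.73, was the 1 gene called among 17 of the death-inducing complex. TNFRSF12A was the 1 called among 12 other receptors tested, and none was called among 5 other ligands and 18 adaptors and NF-kB genes. FAS was not called (0.40, edgeR adjusted p = 0.92).

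KRTDAP had 28.1, 8.86 and 2.41 CPM in positive cells of calves 1, 2 and 3 and 182, 169 and 3.78 in negative cells (log2 -3.48, edgeR adjusted p = 3.0e-22), and SPINK5 had 4.68, 13.3 and 0 against 79.1, 74.9 and 7.43 (log2 -3.09, edgeR adjusted p = 1.1e-10). One UMI was worth 4.68, 2.21 and 2.41 CPM in the positive sums, so the KRTDAP value of calf 3 is 1 UMI and the calves that carry the difference are 1 and 2. A2ML1 (-2.92), C7H5orf46 (-3.51), LYZ1 (ENSBTAG00000011941, -2.90; the similar lysozyme genes may share its reads), ENSBTAG00000050581 (-4.94) and ENSBTAG00000046944 (-3.92) were also lower. ARG1, CYP2B6 and IVL (involucrin, of the cornified envelope) had no UMI in positive cells of any calf, against 1.28 to 16.3, 4.46 to 15.9 and 1.82 to 27.1 CPM in negative cells. In calf 3 the negative levels of ARG1 (1.28) and IVL (1.82) were below the 2.41 CPM of 1 UMI in its positive sum. An absence there could not be told from the negative level, so for these 2 genes the difference rests on calves 1 and 2.

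Of the 20 genes with the largest differences in either direction, all of them moved the same way in 3 of 3 calves by the rule that named them, 6 kept the call without calf 2: KRT6A, KRT17, KRTDAP, SPINK5, A2ML1 and ENSBTAG00000050581. Without calves 1 and 3, 14 and 19 kept it. Calls for the whole comparison fell from 53 to 12 without calf 2. Of the mitotic markers MKI67 (-1.55) and TOP2A (-1.41) were lower in 3 of 3 calves and CENPF (-1.14) in 2 of 3, and the spinous keratinocyte markers moved both ways, with KRT6A higher and KRTDAP lower.

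**Figure D5:**
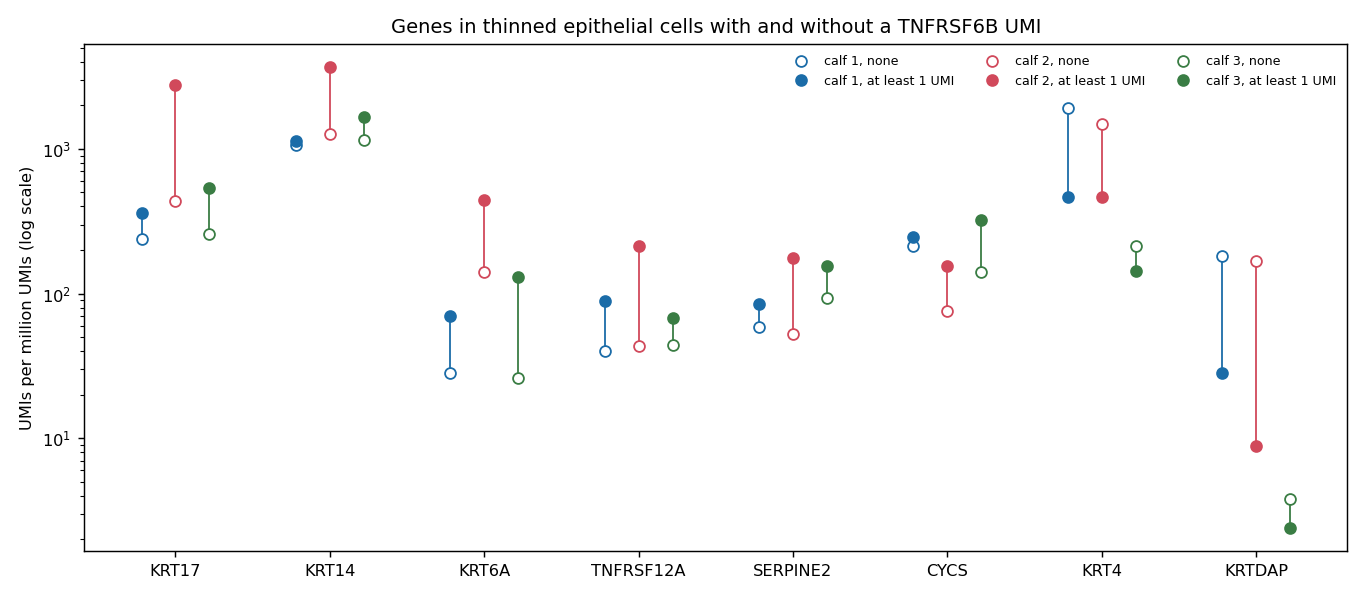
CPM (log axis) of KRT17, KRT14, KRT6A, TNFRSF12A, SERPINE2, CYCS, KRT4 and KRTDAP in thinned epithelial cells without and with a TNFRSF6B UMI, with 1 line per calf. The first 6 rise in every calf, most steeply for KRT17 in calf 2 (437 to 2757), and KRT4 and KRTDAP fall in every calf.

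A second comparison, chosen after seeing the data, took epithelial cells with at least 3 of all their UMIs from TNFRSF6B (20, 154 and 65 cells in calves 1, 2 and 3) against those with none. It called 863 of 15011 genes (5.75%), 419 higher and 444 lower, by the same edgeR test, and the split was 587 and 277 with library totals. DESeq2 called 412, edgeR without the block called 0 (1256 with an unadjusted p under 0.05), and without calf 2 the edgeR count was 264. Of the 53 genes called above, 45 were called again with the same sign, which is 84.9% of the first list and 5.21% of the second, and these cells are partly the same cells. KRT17 stood at 20.3, 42.1 and 16.3 UMIs per 10000 in the cells with at least 3 and at 2.96, 5.69 and 2.69 in those with none (log2 2.65, edgeR adjusted p = 4.1e-41).

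The 10 largest called rises among genes higher in 3 of 3 calves included KRT6A (log2 3.04), CFB (3.32), CCL20 (a chemokine of epithelia, 2.99), FABP4 (3.09), the calcium-activated potassium channel KCNN4 (2.82), FOSL1 (an AP-1 subunit, 3.31), PVR (3.11) and HPDL (2.81). The first 5 of these and KRT17 kept the call without calf 2. KRT14 was higher (1.41), and KRT15 (-0.65), COL17A1 (-0.57) and KRT4 (-2.14) were lower. None of 3 granule cell markers was called (CLDN1 -0.33, DLK2 0.09 and CLDN4 0.08). Of 4 spinous markers 3 were higher: KRT6A, S100A8 (0.58, edgeR adjusted p = 0.034) and S100A9 (0.65, edgeR adjusted p = 0.0086). The 1 lower was KRTDAP, by -3.42. GJA1 was also higher (0.92, edgeR adjusted p = 0.0065). S100A8 and GJA1 rose in 2 of 3 calves and S100A9 in 3 of 3. Of 13 other receptors tested, CD40 (2.54), TNFRSF21 (death receptor 6, 1.83) and TNFRSF12A (1.55) were higher and EDAR (-1.34) and TNFRSF19 (-1.85) lower, of 17 death genes CYCS (1.80) and FADD (0.72) were higher, and of 18 NF-kB genes RELB (1.53) was higher. Without calf 2, TNFRSF12A kept its call (0.91, edgeR adjusted p = 0.0400), while TNFRSF21 (1.40, edgeR adjusted p = 0.16) and TNFRSF19 (-2.36, edgeR adjusted p = 0.12) did not. FAS was not called (0.87, edgeR adjusted p = 0.41). Of the mitotic markers CENPF was lower (-1.02), while MKI67 (-0.29, edgeR adjusted p = 0.66) and TOP2A (-0.51, edgeR adjusted p = 0.19) were not called. In calf 3 MKI67 stood at 89.5 CPM in the cells with at least 3 UMIs against 38.8 in those with none, and TOP2A at 129 against 61.0.

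Cells with at least 3 UMIs were also deeper, with medians of 13131.5, 9031.5 and 13716 UMIs against 10182, 6610 and 7827, and had higher median doublet scores (0.671, 0.680 and 0.647 against 0.643, 0.544 and 0.529). The part of depth and of doublets in this second comparison was not tested, and the first comparison is at equal depth.

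The gene next to TNFRSF6B in the cattle annotation of RefSeq (assembly ARS-UCD2.0, used here for gene order only) is the helicase gene RTEL1 on one side and ARFRP1, then ZGPAT, on the other. RTEL1 resembled TNFRSF6B in being lower in endothelial than in epithelial cells (log2 -1.96, edgeR adjusted p = 0.00031), but it differed less in immune cells (-0.92, edgeR adjusted p = 0.11). In cells with at least 3 TNFRSF6B UMIs RTEL1 was higher (1.66, edgeR adjusted p = 3.3e-05), ZGPAT (0.64, edgeR adjusted p = 0.069) and ARFRP1 (0.31, edgeR adjusted p = 0.52) were not called. Whether the 3′ counts of RTEL1 and TNFRSF6B share reads was not tested.

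The genes whose levels over the 13 epithelial clusters were most like those of TNFRSF6B were ranked by the lowest Pearson r of the 3 calves, on log2 of UMIs per 10000 plus 0.1, among 3726 genes. PPP1R14C (0.53), OGFR (0.45), CSKMT (0.43), PPID (0.40), PUS3 (0.35), SERPINE2 (0.35), DRG2 (0.32), NCOA4 (0.31), MED25 (0.27) and CAPNS1 (0.27) came first. For FAS the first were PCF11 (0.74), JMJD1C (0.73), PATL1 (0.73), KLF6 (0.72), FAM71A (0.71), CCNL1 (0.71), FAM20C (0.71), PRAG1 (0.70), ATXN2 (0.70) and TLE4 (0.70). The clusters share libraries and differ in depth, so these values are descriptions, and TNFRSF6B had no gene that followed it as closely in every calf as the leading genes followed FAS.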

How the data were processed

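Rumen cells of 3 newborn calves were analysed (1 library per calf, 1 group, from the labels). The authors deposited UMI counts per gene and barcode from Cell Ranger 3.1.0 (submitters' processing notes) on ARS-UCD1.2, not normalized and before cell filters. The number of deposited columns belonging to other samples was 0. Barcodes with 500 to 4000 genes, at most 50000 UMIs and at most 40% UMIs of 13 mitochondrial genes were kept. Doublets were removed by a score against simulated doublets (0.8% per 1000 barcodes), which took 191, 908 and 879 barcodes. Counts were log-normalized, and 2000 variable genes, without the 7 genes studied, gave 30 components. An own implementation of Harmony merged the calves, and Leiden clustering at resolution 0.1 gave classes and at 0.8 clusters within classes, named by marker genes.

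UMI counts were summed per calf and class, or per calf and TNFRSF6B call, and tested with edgeR 4.0.16 (R 4.3.3, TMM factors, quasi-likelihood, genes with at least 10 UMIs, Benjamini-Hochberg, adjusted p of 0.05). Sums with the same calf number come from the same animal, so the calf was a block. DESeq2 1.42.0, other filters, no block, other thinning, library totals and leaving out calves were alternatives. Scripts were tested on simulated data with 200 changed genes. Named genes were the 10 largest called differences in each direction among those moved alike in 3 of 3 calves, called pathway genes and the 10 genes most like TNFRSF6B and FAS. Members and lists were chosen with earlier results of these data known. TNFRSF14 and several listed receptors without a matching symbol were not analysed here. Python 3.11.15, numpy 2.4.6, scipy 1.17.1, scikit-learn 1.9.0 and python-igraph 0.11.9 were used.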

Additional observations from a re-analysis of the deposited data

Results flagged for a closer look

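Barcodes outside the limits on detected genes were left out of every comparison, and UMIs of the genes above the limit of 3 counts were found in them. In barcodes with more than 4000 genes (797, 187 and 637 in calves 1, 2 and 3), TNFRSF6B stood at 0.128, 0.228 and 0.402 UMIs per 10000, where the kept epithelial cells had 0.114, 0.264 and 0.172. Calf 3 was thus higher in these barcodes than in its kept epithelium, and calf 2 was not. FAS was 0.0278, 0.0480 and 0.0584 there, TNFSF15 was 0.0121, 0.00662 and 0.0169, TNFRSF25 was 0.0262, 0.0579 and 0.0420, and TNFSF14 in calf 3 was 0.00710. KRT5, for comparison, was 42.9, 53.5 and 35.3 in them.

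In barcodes with fewer than 500 genes (1797, 1119 and 476), TNFRSF6B was 0.0273, 0.0709 and 0.0627 and KRT5 was 10.2, 12.8 and 7.46. TNFSF14 was 0.0354 in calf 2 and 0.235 in calf 3, TNFRSF25 was 0.0351 in calf 1 and 0.0405 in calf 2, and FAS was 0.0783 in calf 3. Whether these barcodes hold cells, free RNA or doublets was not tested.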

How the results depend on the processing

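For 8 levels by class, all 24 values with other settings moved by less than 1 SD between calves. The 24 values without 1 calf did so too. With 3 calves, leaving 1 out cannot move the mean that far, so these 24 values are no test of stability. Shares moved with depth: TNFRSF6B in epithelial cells was 1.36%, 4.66% and 8.53% after thinning to 1000 and 4000 UMIs and without thinning, FAS in epithelial cells 0.467%, 1.69% and 3.37%, FAS in endothelial cells 7.89% (4000) and 10.0% (none), TNFRSF25 in endothelial cells 8.34% and 9.33%, TNFSF14 in immune cells 5.90% and 19.3%, TNFSF15 in immune cells 2.40% and 2.56%, and TNFRSF6B in fibroblasts 0.604% (1000). Called genes between classes ranged, without 1 calf, over 3898 to 5869 (endothelial against epithelial), 2760 to 4836 (fibroblast against epithelial), 2629 to 6285 (immune against epithelial), 1893 to 3389 (endothelial against fibroblast), 1934 to 4523 (immune against endothelial) and 1941 to 4775 (immune against fibroblast), each lowest without calf 3; without calf 2 fibroblast against epithelial gave 3137. These fits have fewer samples.

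TNFRSF6B in fibroblasts against epithelial cells passed at -1.04 without a filter, without sums under 20 cells and without Harmony, and ranged from -0.50 to -1.29 without 1 calf. Of 180 other values of the tests of single members between classes, 170 kept direction and side of the threshold. Reversals were TNFSF15, fibroblast against epithelial (-0.26 with doublets kept, -0.36 to 0.63 without 1 calf), TNFRSF25 in the same pair (0.010 with library totals), and, without 1 calf, FAS immune against epithelial (-1.71 to 0.52), FAS endothelial against fibroblast (-0.061 to 1.68) and TNFRSF25 immune against endothelial (-1.24 to 0.49), each reversed without calf 3. FAS in TNFRSF6B-positive cells ranged from -1.67 to 1.29 and, for at least 3 UMIs, from -0.64 to 1.66, reversed without calf 2. None of these was called.

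The 53 genes of the TNFRSF6B-positive comparison became 7 with DESeq2 (227 with an unadjusted p under 0.05), 70 with thinning to 1000 UMIs (13 higher and 57 lower, with 14 of the 53 among them), 127 and 105 with thinning to 4000 UMIs and without thinning, 13 with at least 2 UMIs, 863 with at least 3 of all UMIs, and 12 to 49 without 1 calf. Without the pairing of sums by calf (no replicate block), edgeR called 0 genes (304 with an unadjusted p under 0.05; 7 with DESeq2, with the block), and 0 for at least 3 UMIs (1256 with an unadjusted p under 0.05), where DESeq2 called 412 and leaving out 1 calf gave 264 to 639. The block changed no call of a member between classes.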
